A study of Mus musculus with 2 samples.

Results

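Cyclins and E2F factors were examined in mouse CD8+ T cells stimulated in culture. The group comprises 10 genes: the G1 cyclins Ccnd1, Ccnd2, Ccnd3, Ccne1 and Ccne2, the S phase and mitotic cyclins Ccna2, Ccnb1 and Ccnb2, and the transcription factors E2f1 and E2f2. Members were the probes annotated to 1 of these symbols alone, with a value on both arrays, and 9 probes of 8 genes met this rule, out of 14150 genes so measured. Ccnb1 and E2f2 had no such probe in the data used here. The cells were effector T cells of the pmel mouse, a transgenic line whose CD8+ T cells recognise a melanocyte peptide, after 2 rounds and after 1 round of stimulation in vitro. Total RNA of both stages was hybridised together on a two-colour microarray, and 2 such arrays were made, the second of them titled a repeat. Age, sex, culture medium and the stimulus are not given in the sources used here, nor is it known whether the repeat began from separate cells, so errors and p-values measure only how far the arrays differ, and that spread may be technical.

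Cyclins are the regulatory subunits that switch on cyclin-dependent kinases (CDKs) in an ordered sequence through the cell cycle. D cyclins link growth signals to CDK4 and CDK6, which, followed by cyclin E with CDK2, phosphorylate the retinoblastoma family of pocket proteins and so free the activating E2F factors. E2F factors then drive genes of DNA synthesis, among them the E cyclins, Ccna2 and E2f1 itself, while the B cyclins pair with CDK1 to start mitosis. Activated CD8+ T cells divide rapidly, and they rely mainly on cyclins D2 and D3 at the G1 step.

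Each value is the log ratio of the RNA of the 2 stages at a probe, taken as log2. Neither the log base nor the numerator is stated. The title and the channel numbers name the cells after 1 stimulation first, and from that order alone a negative value is likely to mean more RNA after 2 stimulations and a positive value more RNA after 1 stimulation. With the other order every sign below turns round, so the results are given as sides of the ratio. Of 21919 probes, 21427 had both values, with medians of 0.01 and 0.02 on arrays 1 and 2, and across probes, which are not independent replicates, Pearson's r between the arrays was 0.494 and Spearman's rho 0.420. Spot intensities were not used here, so the signal behind a ratio is unknown, expression levels of different genes cannot be ranked, and precision is limited by there being 2 arrays. The labels place the same stage in channel 1 on both arrays, and whether the dyes were exchanged is not stated.

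The cyclins and E2f1 lay on the negative side as a group, except for Ccnd1 and Ccnd2. Of the 8 measured genes, 6 were negative on both arrays (Ccnd3, Ccne1, Ccne2, Ccna2, Ccnb2 and E2f1), where 33.6% of all 14150 genes were negative on both. Ccnd1 alone was positive on both arrays, as were 29.6% of all genes, and Ccnd2 changed sign between them. At least 2-fold from a ratio of 1 on both arrays were 3 of the 8 genes, E2f1, Ccna2 and Ccnb2, all negative, against 0.721% of all genes on that side. On the positive side 0 of the 8 were at least 2-fold on both arrays, against 0.233% of all genes. The median of the 8 genes was -1.13 (-1.27 on array 1 and -0.94 on array 2), and the median of all genes was -0.02. In limma's moderated test against 0, with Benjamini-Hochberg adjustment over 21427 probes, 0 of the 9 member probes and 0% of all probes had an adjusted p under 0.05. At an unadjusted p under 0.05 there were 6 of the 9 member probes, all of them negative, against 14.9% of all probes on either side. No gene is called changed here, and each is given with its value on both arrays.

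**Figure D1:**
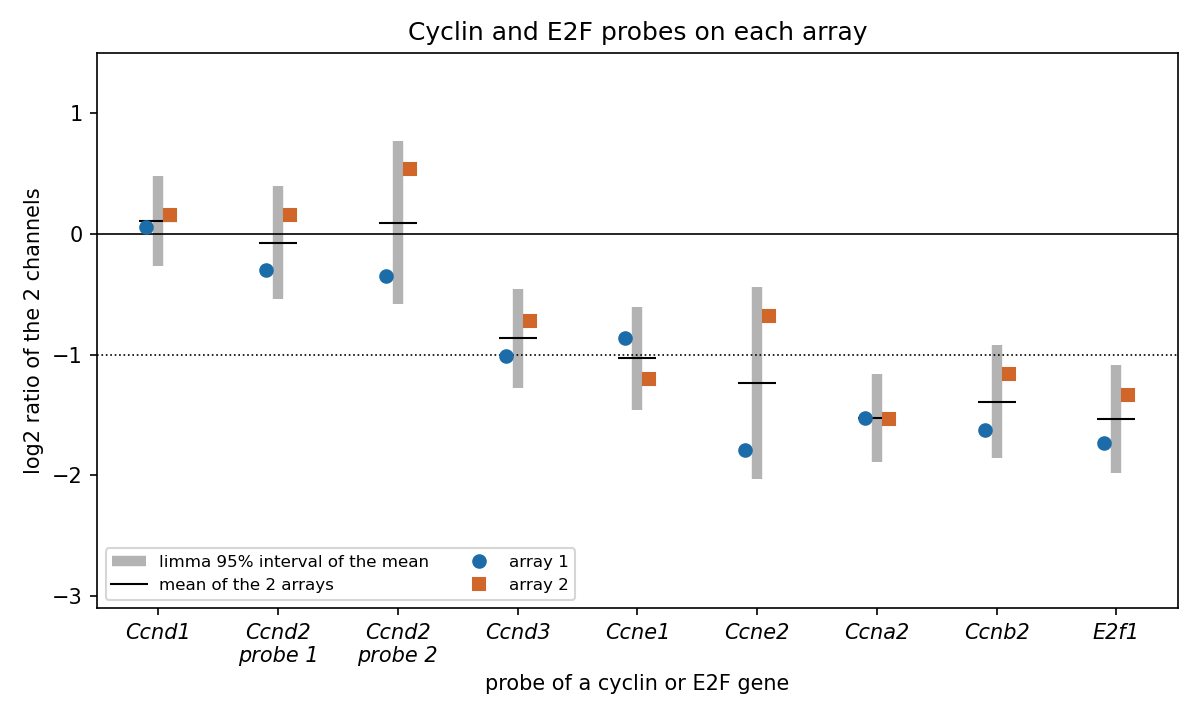
Log2 ratio (vertical axis) of each cyclin and E2F probe on array 1 (circles) and array 2 (squares), with the mean (dash) and limma's 95% interval of the mean (grey bar); the dotted line marks a 2-fold difference on the negative side. Both Ccnd2 probes straddle 0, Ccnd1 lies near 0, and from Ccnd3 to E2f1 every point is negative.

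The 3 D cyclins, which carry growth and antigen receptor signals to CDK4 and CDK6, did not share a value. Ccnd3 read -1.01 on array 1 and -0.72 on array 2, a mean of -0.87 ± 0.21 (SD, n = 2) and a 1.82-fold difference. limma's 95% interval ran from -1.27 to -0.46 and its adjusted p was 0.176. Both values were thus on the negative side, and the interval did not include 0.

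Ccnd2, the other main D cyclin of lymphocytes, was covered by 2 probes. The first, made to the transcript AK011429, read -0.30 and 0.16 on arrays 1 and 2. The second, made to NM_009829, read -0.35 and 0.54. Both probes were thus negative on array 1 and positive on array 2, so the disagreement lay between the arrays and not between the probes. Their mean gave -0.325 on array 1 and 0.35 on array 2, and averaged over the arrays Ccnd2 stood at 0.01 ± 0.48 (SD, n = 2). The 2 probes had adjusted p-values of 0.874 and 0.884 in limma's test. The arrays do not give a side for this gene.

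Ccnd1, the D cyclin used mostly outside the lymphoid lineage, read 0.06 and 0.16, a mean of 0.11 ± 0.07 (SD, n = 2). Its limma 95% interval, from -0.26 to 0.48, leaves room for a difference of less than 2-fold in either direction. In a two-colour ratio a gene that is hardly transcribed and a gene transcribed equally at both stages both read near 0, and without intensities these cannot be told apart. Between paralogues, the log2 ratio of Ccnd3 minus that of Ccnd1 was -1.07 on array 1 and -0.88 on array 2. Against Ccnd2 the difference was -0.69 and -1.07. Ccnd3 was the lowest of the 3 on both arrays. The mean difference was -0.975 ± 0.134 from Ccnd1 and -0.878 ± 0.272 from Ccnd2 (SD, n = 2 each), both larger than the spread between the arrays. An exact two-sided sign-flip test over 2 arrays cannot give a p below 0.5, and no other test of these differences was run.

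The E cyclins, which activate CDK2 at the entry into DNA synthesis, were both negative on both arrays. Ccne1 read -0.86 and -1.20, a mean of -1.03 ± 0.24 (SD, n = 2) and a 2.04-fold difference, with a limma 95% interval from -1.45 to -0.61 and an adjusted p of 0.165. Ccne2 read -1.79 and -0.68, a mean of -1.24 ± 0.78 (SD, n = 2) and a 2.35-fold difference, with an interval from -2.03 to -0.44 and an adjusted p of 0.223. Ccne2 had the widest spread of the members, 3.46-fold on array 1 against 1.60-fold on array 2. The order of the pair turned between the arrays, with Ccne2 minus Ccne1 at -0.93 on array 1 and 0.52 on array 2. Each E cyclin was at least 2-fold on 1 array only, Ccne2 on array 1 and Ccne1 on array 2.

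Ccna2, which partners CDK2 during DNA synthesis and CDK1 at mitotic entry, gave nearly the same value on both arrays, -1.52 and -1.53. Its mean was -1.53 ± 0.007 (SD, n = 2), a 2.88-fold difference, with a limma 95% interval from -1.89 to -1.16 and an adjusted p of 0.162. limma's standard error of 0.137 borrows spread from all probes and is wider than these 2 values alone would give. Ccnb2, a mitotic cyclin that acts with CDK1, read -1.62 and -1.16. Its mean was -1.39 ± 0.33 (SD, n = 2), a 2.62-fold difference, with an interval from -1.86 to -0.92 and the same adjusted p of 0.162. Both lay beyond 2-fold on both arrays. Of all genes, 0.297% had a lower mean than Ccna2 and 0.424% a lower mean than Ccnb2.

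E2f1, an activating E2F factor that also stimulates its own gene, read -1.73 on array 1 and -1.33 on array 2. Its mean of -1.53 ± 0.28 (SD, n = 2), a 2.89-fold difference, was the lowest of the members by 0.005 from Ccna2. The limma 95% interval ran from -1.98 to -1.08, the adjusted p was 0.162, and 0.283% of all genes had a lower mean. An adjusted p of 0.162 was also the smallest of all 21427 probes. Probes of other genes, among them Cdk1 and Mcm2, shared it, so it does not rank E2f1, Ccna2 and Ccnb2 above those. The values of E2f1 were beyond 2-fold on both arrays.

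Ordered by mean log2 ratio from the lowest, the members ran E2f1, Ccna2, Ccnb2, Ccne2, Ccne1, Ccnd3, Ccnd2 and Ccnd1. By these means the S phase, mitotic and E2F genes stood at the low end, the E cyclins in the middle and the D cyclins at the high end. Neither array alone gave this grouping. Ccne2 was the lowest member on array 1 at -1.79, and on array 2 Ccne1 at -1.20 read below Ccnb2 at -1.16. The values of neighbours in the order of means overlapped between the arrays in every case but that of Ccnd3 and Ccnd2. There the step was 0.88 in the mean, with 0.69 on array 1 and 1.07 on array 2. The other steps, between 0.005 and 0.205, were thus within the spread between arrays. The order is of ratios and does not say which cyclin was more abundant.

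**Figure D2:**
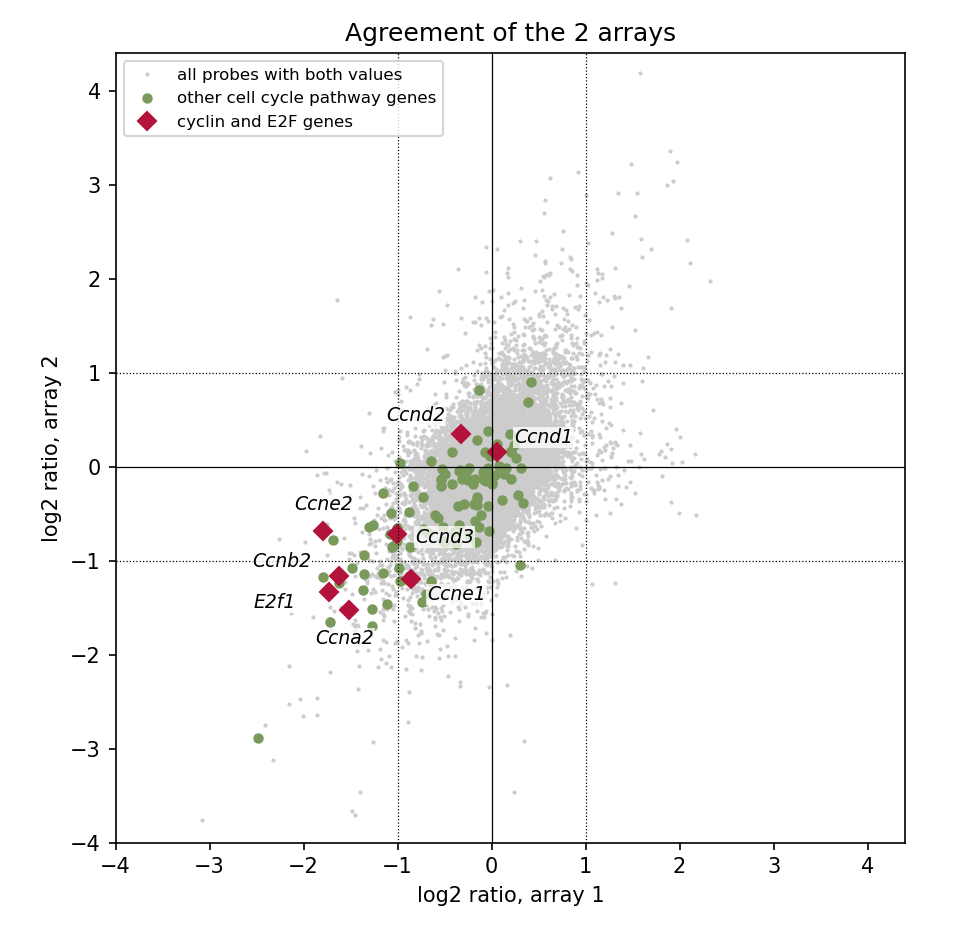
Log2 ratio on array 1 (horizontal axis) against array 2 (vertical axis) for all probes with both values (grey), other cell cycle pathway genes (green circles) and the 8 cyclin and E2F genes (red diamonds, 1 mean per gene); dotted lines mark 2-fold. E2f1, Ccna2 and Ccnb2 lie in the lower left corner beyond 2-fold on both arrays, Ccne2, Ccnd3 and Ccne1 at its borders, and Ccnd2 and Ccnd1 near the origin.

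Promoter sequence is shown for Ccnb2 and Ccne1, a mitotic and a G1 cyclin that were both on the negative side, and for Cdk1, the kinase partner of the B cyclins. The windows come from RefSeq (GRCm38.p6) and run from 250 bases before to 50 bases after an annotated transcript start. Motifs of 4 families were searched on both strands: the E2F site as TTTCCCGC, TTTCGCGC, TTTGCCGC or TTTGGCGC, the cell cycle homology region (CHR) as TTTGAA, the NF-Y box as CCAAT and the GC box as GGGCGG. Of all 32851 windows in the table, 2.26% held an E2F site, 17.9% a CHR, 37.4% an NF-Y box and 35.7% a GC box. Capitals mark every match on either strand, and in these windows no match of one family overlapped one of another. The Ccnb2 window is chr9:70421505-70421804 on the minus strand, that of Ccne1 is chr7:38107441-38107740 on the minus strand and that of Cdk1 is chr10:69352863-69353162 on the minus strand, each written 5′ to 3′ along the gene.
Ccnb2: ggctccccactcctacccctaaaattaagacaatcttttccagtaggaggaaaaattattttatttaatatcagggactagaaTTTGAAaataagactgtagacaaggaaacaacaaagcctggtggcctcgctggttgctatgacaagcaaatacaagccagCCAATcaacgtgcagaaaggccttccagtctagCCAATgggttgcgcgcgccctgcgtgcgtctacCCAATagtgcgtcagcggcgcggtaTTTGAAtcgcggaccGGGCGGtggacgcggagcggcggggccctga
Ccne1: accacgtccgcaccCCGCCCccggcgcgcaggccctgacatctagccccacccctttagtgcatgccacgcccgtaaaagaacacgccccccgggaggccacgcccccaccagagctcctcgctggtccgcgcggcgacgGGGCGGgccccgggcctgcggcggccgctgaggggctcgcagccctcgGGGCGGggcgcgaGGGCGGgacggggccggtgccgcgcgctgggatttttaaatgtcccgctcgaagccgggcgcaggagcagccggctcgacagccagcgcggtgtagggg
Cdk1: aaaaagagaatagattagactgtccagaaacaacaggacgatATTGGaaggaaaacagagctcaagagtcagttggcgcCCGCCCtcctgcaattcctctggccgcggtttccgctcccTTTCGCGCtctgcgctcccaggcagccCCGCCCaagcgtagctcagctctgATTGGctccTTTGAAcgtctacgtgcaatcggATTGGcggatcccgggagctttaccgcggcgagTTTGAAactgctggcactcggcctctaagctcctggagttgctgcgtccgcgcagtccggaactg

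In the Ccnb2 window 3 NF-Y boxes began 87, 54 and 21 bases upstream of the start, each 33 bases from the next, and 3.37% of all windows held 3 or more. A CHR began 4 bases downstream of the start, and a further TTTGAA lay 167 bases upstream. The Ccne1 window held 4 GC boxes and no match to the other 3 families, and 10.7% of all windows held 3 or more GC boxes. The Cdk1 window held an E2F site 131 bases upstream, 3 NF-Y boxes, 2 CHR matches and 2 GC boxes. Ccnb2 and Cdk1 both had NF-Y boxes and CHR matches, and the Ccne1 window had neither. All of these genes read negative on both arrays, and a link between motifs and ratios was not tested. The window of Ccnb1, the other B cyclin of the group, held 2 NF-Y boxes and 3 GC boxes but no CHR match. Of the 2 windows of E2f2, the outermost held 1 E2F site and 1 NF-Y box, and the inner one 1 CHR, 3 NF-Y boxes and 1 GC box. Ccnd3 has 2 windows in the table, with 2 GC boxes each and, in the one at the inner start, 1 NF-Y box. The only E2f1 window lies at an inner start, 466 bases from the outermost, and was left out of the figure. It held 5 GC boxes and no match to the other 3 families. A match is a description of letters, and an absent match says only that these letters are not in this window. Ccnd1, Ccnd2, Ccne2 and Ccna2 have no window in the table used.

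**Figure D3:**
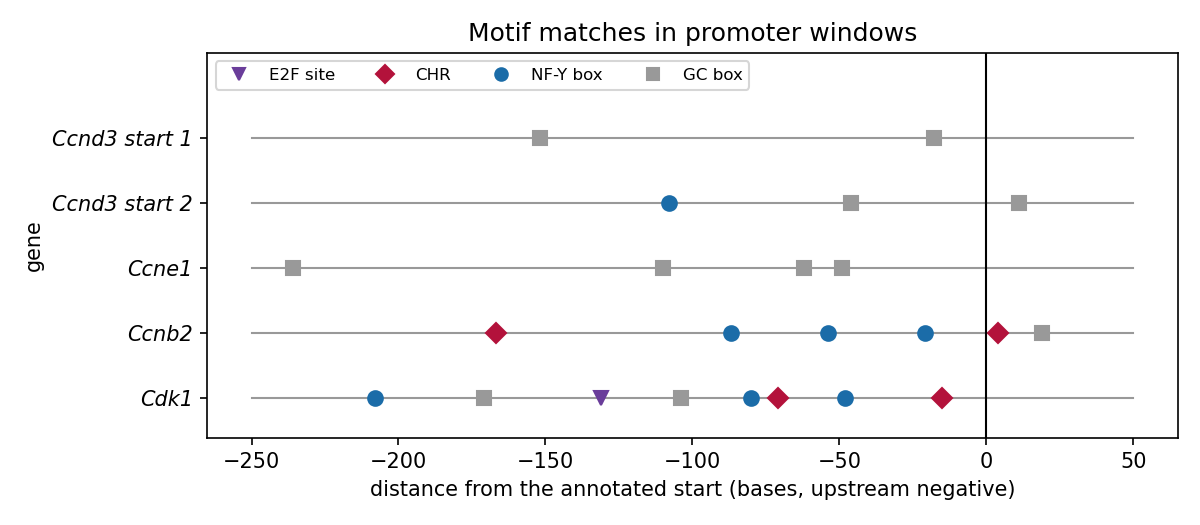
Position of motif matches (horizontal axis, bases from the annotated start, upstream negative) in the RefSeq promoter windows of Ccnd3 (both annotated starts), Ccne1, Ccnb2 and Cdk1; each marker is the first base of a match on either strand. Ccnb2 shows 3 evenly spaced NF-Y boxes and a CHR at the start, Ccne1 GC boxes only.

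The 5 listed cyclin-dependent kinases were all negative on both arrays, as were 33.6% of all genes. Their means were closer to 0 than those of Ccna2 and Ccnb2, and none was at least 2-fold on both arrays. Cdk1, the mitotic kinase, read -0.98 and -1.08, a mean of -1.03 ± 0.07 (SD, n = 2) and a 2.04-fold difference. Cdk4, a partner of the D cyclins, stood at -0.66 ± 0.18 (SD, n = 2), with -0.53 and -0.78. Cdk2, which serves cyclins E and A, read -0.32 and -0.05, and Cdk6 -0.25 and -0.14. Cdk7, which phosphorylates the other CDKs to make them active, read -0.03 and -0.69. The median of the 5 kinases was -0.36. Within each array, the log2 ratio of Ccna2 minus that of its partner Cdk2 was -1.20 and -1.48. Ccnd3 minus Cdk6 was -0.76 and -0.58, and Ccnb2 minus Cdk1 was -0.64 and -0.08. The means of these differences were -1.34 ± 0.198 for Ccna2 and Cdk2, -0.67 ± 0.127 for Ccnd3 and Cdk6, and -0.36 ± 0.396 for Ccnb2 and Cdk1 (SD, n = 2 each), the last of them smaller than its spread, and they were not tested. Ccne1 also read below Cdk2 on both arrays, with differences of -0.54 and -1.15. Not every pair had the cyclin below the kinase. Ccnd3 read below Cdk4 on array 1 and above it on array 2, and Ccnd1 read above Cdk4 and Cdk6 on both arrays.

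The pocket proteins, which hold E2F factors inactive, lay close to 0 on the negative side. Rb1 read -0.19 and -0.40, Rbl1 -0.27 and -0.07 and Rbl2 -0.54 and -0.13. Other E2F and DP factors numbered 6 measured genes with a median of -0.43. Of these, 5 had 2 negative values, against 33.6% of all genes. The lowest was Tfdp1, the dimerisation partner that E2F1 needs to bind DNA, at -1.06 and -0.86. E2f4, mainly a repressor in resting cells, read -0.52 and -0.64. E2f5, another repressor, read 0.28 and -0.30. E2f1 read lower than any of these factors on both arrays, and its log2 ratio minus that of Tfdp1 was -0.67 and -0.47. Tfdp1, E2f4 and E2f5 were picked as examples after their values were seen, as were Cdk7 and the other genes below that are under 2-fold on an array.

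The 10 other measured cyclins, most of which act in transcription or stress responses, were centred on 0. On both arrays 5 of them were negative and 3 positive, against 33.6% and 29.6% of all genes, and their median was -0.02. Ccng1, a target of p53, was the exception at -1.11 and -1.46, beyond 2-fold on both arrays. Its relative Ccng2, linked to cell cycle arrest, was on the other side at 0.20 and 0.35. Ccna1, the germ line relative of Ccna2, read -0.08 and -0.14. The values of Ccna1 lay far from the -1.52 and -1.53 of Ccna2 on the same arrays.

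Genes that E2F factors are known to drive for DNA synthesis were mostly on the negative side. This list, like the other pathway lists, was chosen with earlier results of these data known. The median of 23 measured genes was -0.65, with both values negative for 21 and both positive for 0. Of all genes, 33.6% were negative on both arrays. At least 2-fold on both arrays were 4 of the 23, against 0.721% of all genes on the negative side. They were the replication factor subunit Rfc4 at -1.27 and -1.51, the ribonucleotide reductase subunit Rrm2 at -1.37 and -1.31, Cdc45, a part of the replicative helicase, at -1.49 and -1.08, and the primase Prim1 at -1.36 and -1.14. At the other end Tk1, thymidine kinase, read 0.13 and -0.08, and Pcna, the sliding clamp, read -0.11 and -0.51. Known E2F targets thus spanned the range from near 0 to beyond 2-fold.

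Mitotic genes, which in dividing cells are expressed with the B cyclins, had a median of -0.81 over 16 genes. Both values were negative for 13 and both positive for 0, where 33.6% of all genes were negative on both. At least 2-fold on both arrays were 4 genes, against 0.721% of all genes on the negative side. The checkpoint kinase Bub1 read -1.27 and -1.70, the proliferation marker Mki67 -1.62 and -1.24, the spindle protein Nusap1 -1.79 and -1.17 and Birc5, a chromosomal passenger protein, -1.16 and -1.13. All 4 had means between -1.49 and -1.15. They were named by the same 2-fold bar that Ccna2 and Ccnb2 passed, so nearness to those cyclins follows from the choice. At the other end of the list Aurkb read -0.15 and 0.28. Foxm1 and Mybl2, transcription factors that activate mitotic genes, read -1.07 and -0.49, and -0.70 and -1.36.

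Of the inhibitors of the cyclin kinases, those farthest from 0 were on the same side as the cyclins. Cdkn2b, which blocks CDK4 and CDK6, read -2.48 and -2.89, a mean of -2.69 ± 0.29 (SD, n = 2), and Cdkn1a, an inhibitor of several CDKs induced by p53, read -1.72 and -1.65. By their means both were further on the negative side than any measured cyclin. Cdkn2a was also negative on both arrays, at -0.38 and -0.82. Cdkn2d, another inhibitor of CDK4 and CDK6, was the only one of 6 that was positive on both arrays, at 0.42 and 0.90. Of the 6 inhibitors, 3 were negative on both arrays and 2 at least 2-fold negative on both, against 33.6% and 0.721% of all genes. Cdkn1b, the inhibitor p27, read -0.13 and 0.82 and Cdkn2c -0.97 and 0.04, each changing sign between arrays as Ccnd2 did.

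Among 7 activators and brakes of the kinases (CDC25 phosphatases, inhibitory kinases and CKS subunits), both values were negative for 5 and positive for 0, and the median was -0.49. The lowest was Cks2, a small subunit that binds CDKs, at -1.01 and -0.79. The 2 probes of its relative Cks1b disagreed in size, with means of -0.34 and -1.05. For the machinery that degrades cyclins the median was -0.24, and of its 18 measured genes both values were negative for 12 and positive for 2. None of the 18 was at least 2-fold on both arrays. Of all genes, 33.6% were negative on both arrays, 29.6% positive on both and 0.721% at least 2-fold on the negative side. Ube2c, an enzyme that takes part in ubiquitinating mitotic cyclins, read -1.05 and -0.84. Cdc20, which helps to select mitotic cyclins for degradation, read 0.11 and -0.36. Skp2, which targets p27, read -0.73 and -0.32.

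Regulators upstream of the D cyclins had a median of -0.03 over 9 genes, 3 of them with 2 negative values and 3 with 2 positive ones. Myc, which activates Ccnd2, read 0.30 on array 1 and -1.05 on array 2 and so changed sign in the opposite sense to Ccnd2. Foxo1, a factor that represses D cyclins in resting cells, read 0.39 and 0.69. Over all the pathway lists other than the members, the median of 103 genes was -0.35, with both values negative for 75 and positive for 9. Those at least 2-fold on both arrays were 11, all negative, against 0.721% of all genes on that side. Of all genes, 33.6% had 2 negative values and 29.6% had 2 positive ones. limma passed 0 of the 110 probes of these pathway genes at an adjusted p under 0.05. At an unadjusted p under 0.05 there were 43 negative and 4 positive probes. Among the 15653 probes of all genes, 1525 negative and 943 positive ones had an unadjusted limma p under 0.05.

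**Figure D4:**
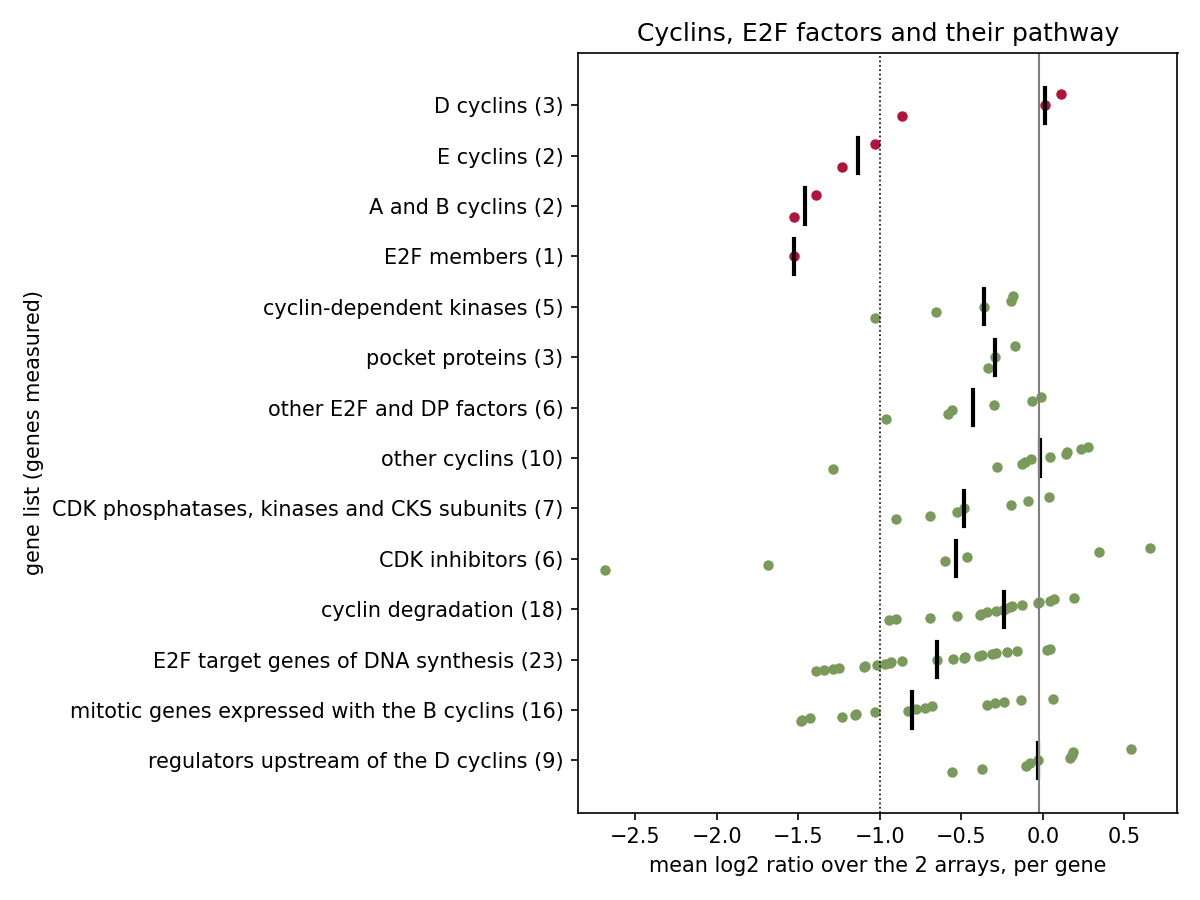
Mean log2 ratio over both arrays (horizontal axis) of each measured gene, by list (vertical axis, number of genes in brackets), for the cyclin and E2F genes (red) and other pathway lists (green). Black bars are list medians, the grey line is the median of all genes (-0.02) and the dotted line marks 2-fold; E2f1 and the A and B cyclins have the lowest list medians (-1.53 and -1.46), while the other cyclins and the regulators upstream of the D cyclins lie around the median of all genes.

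Over both arrays, the genes closest to E2f1 by Euclidean distance were Mki67 (distance 0.142), Shcbp1 (0.160) and Nusap1 (0.171), and 0 genes lay within 0.1 of it. Around Ccnd1, 798 genes lay within 0.1, so its nearest neighbours (Ccdc105, Ddt and E430018J23Rik, each at 0.01) carry no more than its position near 0. Likeness over 2 arrays is a description of 2 values.

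Markers of cell types could be read only as ratios, which do not show whether a type is present. The 7 T cell markers had a median of 0.19 (0.12 on array 1 and 0.42 on array 2), with both values positive for 5 and negative for 0. The T cell receptor genes Cd3e and Cd3g read -0.09 and 0.45, and 0.13 and 0.42. The coreceptor gene Cd8a read 0.03 and 0.74 at 1 probe and 0.71 and 1.06 at the other. The 7 measured B cell markers had a median of 0.59 (0.30 and 0.87), with both values positive for 6, and their means ran from 0.075 to 1.15. Of all genes, 29.6% were positive on both arrays. The 4 probes of Ighm differed in size. They read 2.32 and 1.97, 0.91 and 1.14, 0.43 and 0.41, and 0.33 and 0.27. The 4 measured myeloid markers had a median of -0.06, with 2 negative and 1 positive on both arrays. The part of other cell types in the cyclin values was not tested. In RNA of a whole culture, a different share of dividing cells and a different amount of cyclin RNA per cell cannot be told apart.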

How the data were processed

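Two-colour arrays of mouse CD8+ T cells were compared over 2 hybridisations, each a single table column. The deposited values are signed log ratios, read here as log2. How the authors made them (scanner, background correction, normalization, filters) has no statement in the labels or the table. Probes were named from the platform annotation (15998 with 1 symbol, 288 with several, 5633 with none). The Entrez ID of 15799 was in a RefSeq gene table (GRCm38.p6), and 0 of these had another symbol there.

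limma 3.58.1 in R 4.3.3 fitted an intercept over both arrays to each of 21427 probes, two-sided, with eBayes and Benjamini-Hochberg adjustment at 0.05. The residual degree of freedom is 1, and the prior added 3.43. The code of this step was run on simulated data with effects larger than any member showed, which does not measure its power for the members. Gene values are means of probes. Fold is 2 to the power of the mean. The rule for named genes took all members, list genes at least 2-fold on both arrays, Cdk1, Cdk2, Cdk4, Cdk6, Rb1, Rbl1, Rbl2, Myc, Mki67 and the 3 genes nearest to the lowest and the highest member. Other list genes named in the text were examples picked after their values were seen. The members and lists were chosen with earlier results of these data known. The 2 columns were not copies, as 248 probes had equal values. Alternatives were other scalings, other probe rules, other priors, other sizes and leaving out each array.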

Additional observations from a re-analysis of the deposited data

How the results depend on the processing

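Centring each array on its median, quantile normalization between arrays, taking the probe farthest from 0 and keeping probes with 1 value left 3 member genes at least 2-fold on both arrays and 6 negative on both, and the median of the members between -1.18 and -1.13. On a single array, the member genes at least 2-fold numbered 4 without replicate 1 and 5 without replicate 2, the negative ones 6 and 7, and the median was -0.94 and -1.27 in the same order. With 1.5-fold as the size, 6 member genes passed on both arrays, and with the values read as natural logs 5 did, since both settings lower the bar. Member means moved by at most 0.015 under centring and 0.104 under quantile normalization (Ccne2), and the sign of 1 member, Ccnd2, turned under centring (0.01 as deposited, -0.0025 centred). limma called 0 probes at an adjusted p of 0.05 as deposited, centred, quantile normalized, with a robust prior and with 1 value per gene (smallest adjusted p between 0.082 and 0.162), and 3186 at an unadjusted p under 0.05 as deposited. Without moderation of the variances 241 were called, all of them probes with identical values on both arrays and 0 of them members. No paired analysis was possible because both arrays belong to 1 group. The unknown signal intensity, dye assignment and origin of the repeat limit what the ratios show.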
